A study of Mus musculus with 47 samples.

Results

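The genes described here are 10 genes of insulin and insulin-like growth factor (IGF) signaling: the ligands Igf1 and Igf2, the receptors Igf1r and Insr, the adaptors Irs1 and Irs2, the binding proteins Igfbp2 and Igfbp5, and the transcription factors Foxo1 and Foxo3. They were found by gene symbol and Ensembl identifier in the count tables of both sexes, which hold 55416 gene identifiers each, and the low-count filter kept all 10 in both sexes. The libraries came from brains of male and female 3xTg mice, a model of Alzheimer's disease (AD) that carries the familial human isoforms APPSwe, tauP301L and PS1M146V; in this model neurons make the APP and tau isoforms from a Thy1 promoter, and the presenilin change is a knock-in. Every mouse was 3xTg, the Control groups included, so no value here compares the genotype with a mouse without it. From 6 months of age the mice ate an amino acid-defined Control diet or 1 of 3 diets low in a single branched-chain amino acid, isoleucine (IleR), leucine (LeuR) or valine (ValR), for 9 months. Males gave 4 Control libraries, 3 IleR, 3 LeuR and 4 ValR in this comparison, against 6, 5, 6 and 6 for females. A name such as ValR 9 joins a library's diet to its labelled number. The total count of a library lay between 12682687 and 25722333 in males and between 10672599 and 21370973 in females. The labels do not say that each library is a mouse of its own, whereas the study gives its group sizes in mice, larger ones than the male IleR and LeuR groups here. The p-values measure the spread between libraries.

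IGF-1, IGF-2 and insulin are secreted ligands that act through 2 related receptor tyrosine kinases, and the insulin receptor substrates carry the signal from the receptor to PI3K and Akt. Active Akt keeps the FoxO transcription factors out of the nucleus, so FoxO targets are switched on when the signal is low. IGF-binding proteins hold the ligands in the tissue fluid, and proteases such as pappalysin release them. In the adult brain IGF-2 and IGFBP2 are known as products of the choroid plexus and the meninges, the tissues that line the ventricles and wrap the brain, whereas both receptors are made widely by neurons and glia.

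The labels give the tissue as brain, although their extraction text names liver. Over the 37 libraries 5 brain genes (Snap25, Syt1, Mbp, Gfap and Aqp4) lay between 80.0 and 9447 CPM and 5 liver genes (Alb, Apoa1, Apob, Fgb and Cyp2e1) between 0 and 7.33 CPM. The brain regions in the libraries differed between the diet groups of the males, and this stands beside each male result below. A list of 10 Forebrain markers summed to between 1178 and 3291 CPM (counts-per-million) in male Control libraries, but to between 91.4 and 249.5 CPM in IleR, 29.6 and 493.9 in LeuR and 27.9 and 69.0 in ValR. A list of 10 Cerebellum markers summed to between 44.4 and 83.8 CPM in male Control libraries and to between 1324 and 3553 in IleR, 152.9 and 1355 in LeuR and 1402 and 4575 in ValR. Of the marker genes tested against male Control, 7, 7 and 8 of 10 Brainstem and spinal cord markers rose in IleR, LeuR and ValR, and 3, 0 and 5 of 8 Microglia markers fell. Over all genes tested in males, 6.63%, 3.81% and 11.1% rose and 8.68%, 6.33% and 12.4% fell in IleR, LeuR and ValR. Of 8 Astrocyte markers 2, 1 and 3 rose and 1 fell in each diet, and their part in the results below was not tested. Diet and brain region therefore cannot be told apart in males. In females 2 libraries of each diet were rich in Cerebellum markers, and the forebrain-poor LeuR 45 stood apart from the rest. The 10 markers of the Choroid plexus list summed to anything between 7.80 and 4948 CPM, with wide ranges inside most diet groups.

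Across the 37 libraries these were well-measured genes, and the lowest count of any of them in a library was 66. Per kilobase (kb) of exon, Igfbp5 had the highest level of the 10 in the Control libraries of both sexes, 39.1 CPM per kb in males and 29.5 in females, and Igf1 the lowest, 1.05 and 0.80. In males Igfbp2 at 26.5 CPM per kb, Igf2 at 18.0, Irs2 at 16.7 and Foxo3 at 14.4 followed Igfbp5, and each of these overlapped its neighbour in the order. Igf1r at 6.98, Insr at 5.25 and Foxo1 at 4.59 CPM per kb made a lower tier in males, below every Control library's Foxo3 level. Irs1 at 2.74 CPM per kb lay below every Foxo1 level and above every Igf1 level. In females the order was Igfbp5, Igfbp2, Foxo3, Irs2, Igf2, Igf1r, Foxo1, Insr, Irs1 and Igf1, and only Insr and Irs1, and Irs1 and Igf1, did not overlap. The insulin genes themselves gave nothing to follow, since Ins1 had 0 counts in all 37 libraries, where 3 counts would be 0.117 to 0.281 CPM, and Ins2 had at most 5.

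The genes differed in how much their levels varied between libraries. Igfbp2 varied most among males, 8.64-fold from 17.2 CPM in LeuR 21 to 148 CPM in LeuR 19, both on the same diet. Igf2 varied most among females, 6.25-fold from 26.0 CPM in Control 25 to 162 CPM in ValR 36. Irs2 varied least among males, 1.29-fold, and Igf1r least among females, 1.59-fold.

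**Figure D1:**
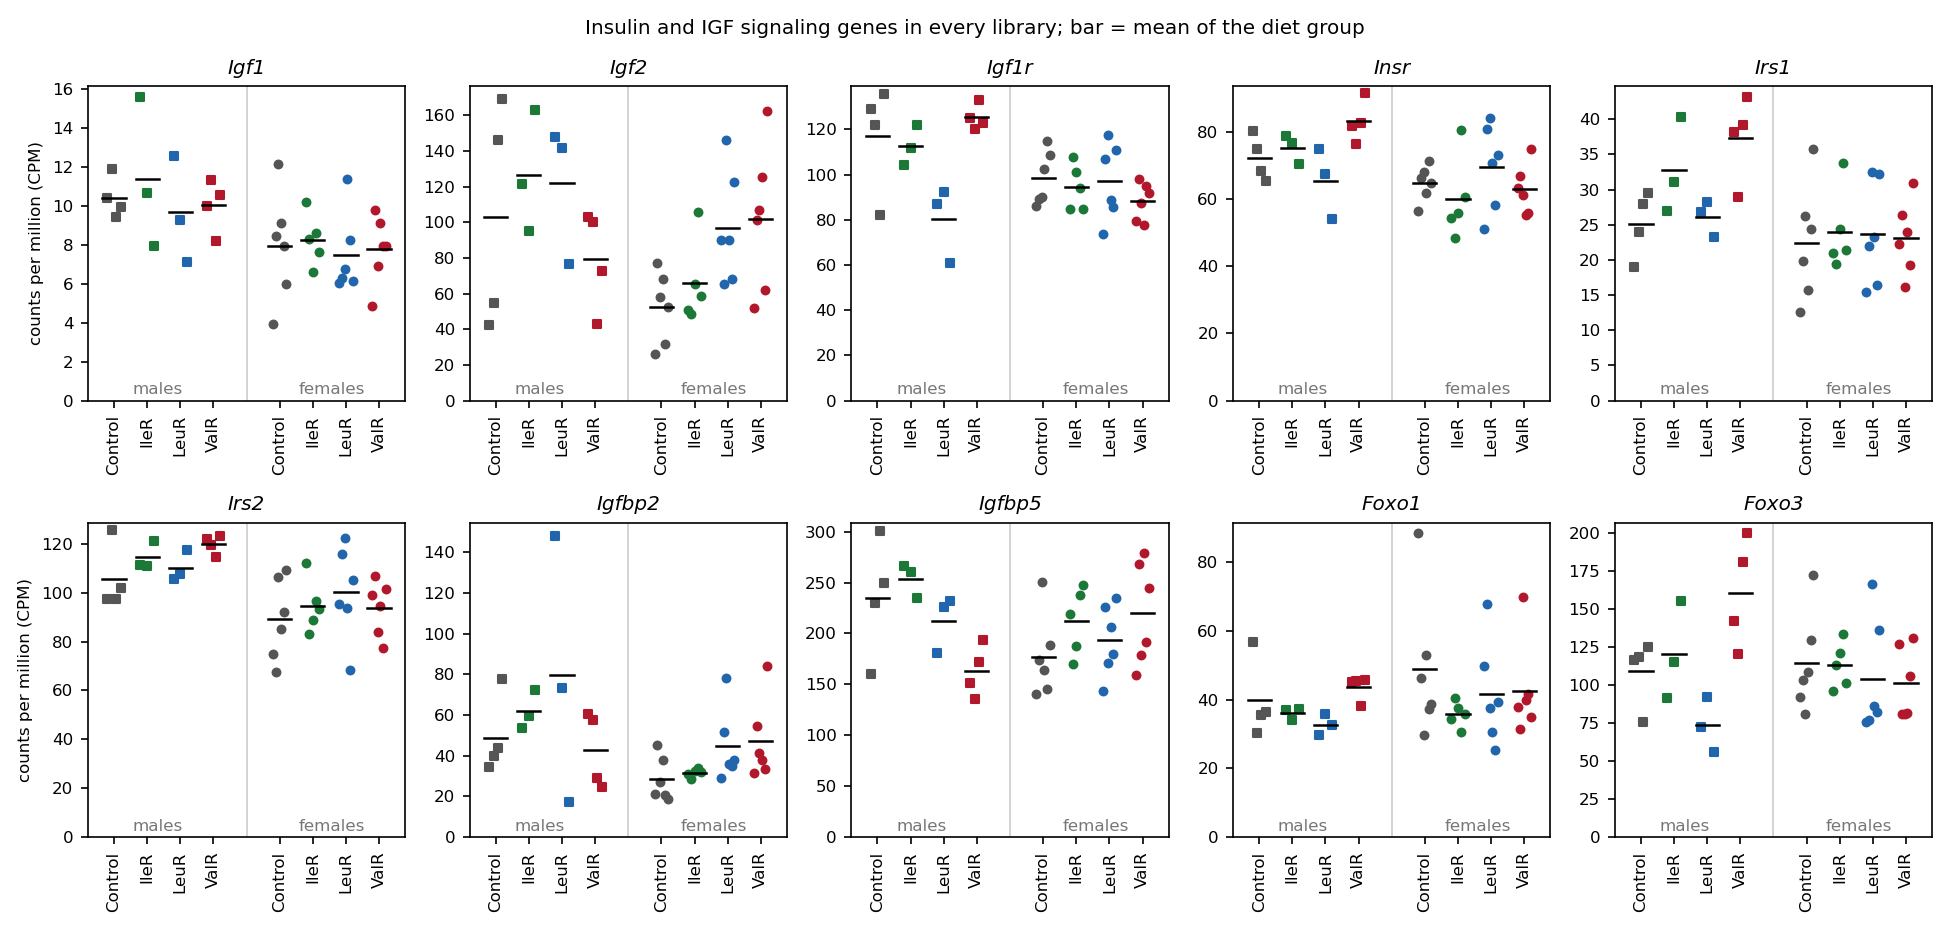
Level in CPM (linear axis from 0) of each of the 10 genes in every library, males as squares on the left and females as circles on the right of each panel, with a bar at the mean of each diet group. Igf2 and Igfbp2 spread widely inside groups, Irs2 little in males and Igf1r little in females, and no restricted group lies wholly outside its own sex's Control range for any gene.

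Of the 10 genes, none passed the test for male IleR against Control and none for male LeuR, and 2 passed for male ValR. Over all 22197 genes tested in males, 15.3% were called in IleR, 10.1% in LeuR and 23.5% in ValR (quasi-likelihood test of edgeR, Benjamini-Hochberg adjustment over all genes, threshold 0.05). The count of 2 of 10 for ValR is near that background. The median log2 fold change of the 10 genes was 0.12, −0.12 and 0.11 in male IleR, LeuR and ValR, against 0.04, 0.05 and 0.03 over all genes. In females 0 of 10 genes passed for any diet, and 0 of all 20344 genes did (0% called in each comparison); at an unadjusted p under 0.05 there were 0, 2 and 2 of the 10 and 577, 820 and 777 of all genes for IleR, LeuR and ValR. With DESeq2 and with limma voom the count of the 10 genes in females was again 0. For no diet, sex and gene of the 60 did the restricted libraries all lie outside the Control range, which 29.3%, 17.7% and 26.4% of all genes did in male IleR, LeuR and ValR and 0.251%, 0.216% and 0.128% in the females.

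**Figure D2:**
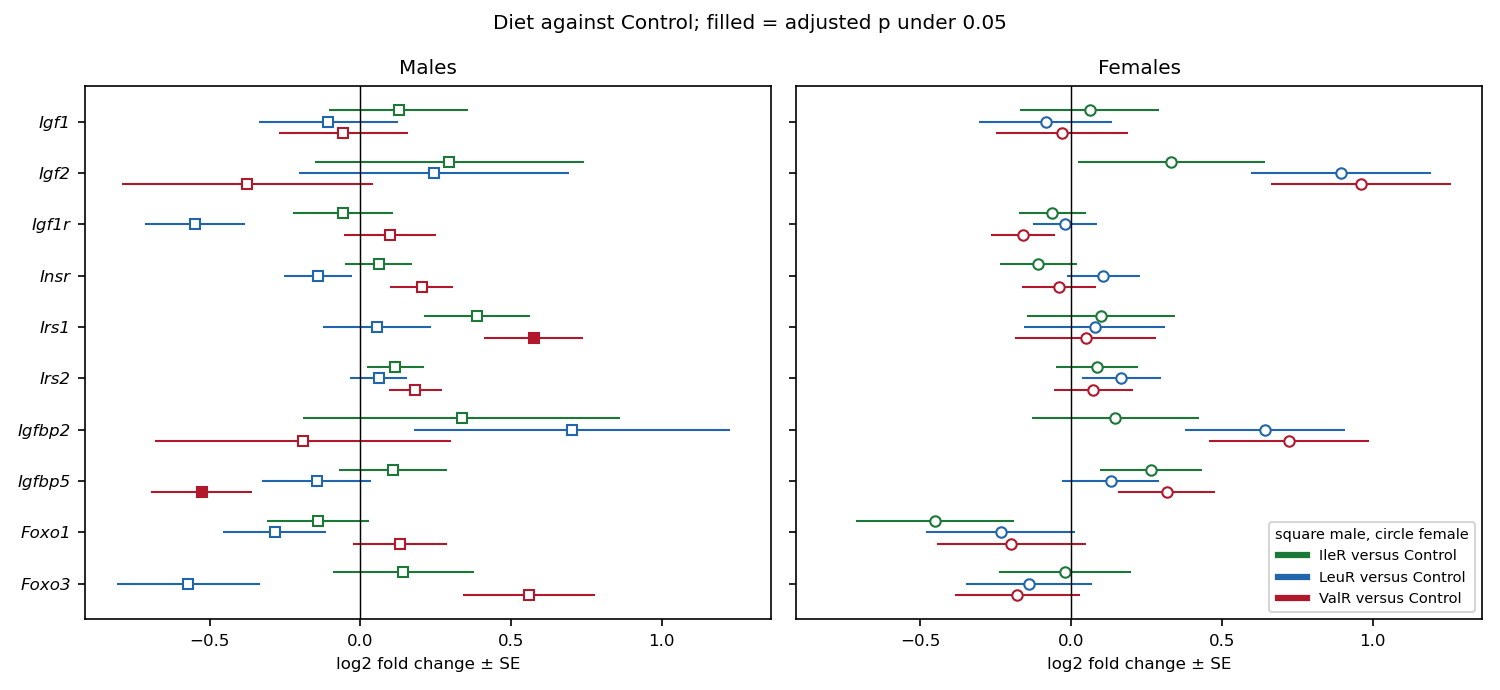
Log2 fold change of each of the 10 genes for each restricted diet against Control, with its standard error (SE) as a bar, males on the left and females on the right; a filled marker is an adjusted p under 0.05. Irs1 (above 0) and Igfbp5 (below 0) in male ValR are the filled markers.

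The ligands did not pass in any comparison. Igf1, which encodes IGF-1, stood at 10.4, 11.9, 9.42 and 9.95 CPM in male Control 1, 3, 4 and 5 and at 10.0, 11.3, 8.20 and 10.6 CPM in ValR 7, 9, 10 and 12. It was 15.6, 10.7 and 7.94 CPM in IleR 13, 14 and 17, and 12.6, 9.30 and 7.11 CPM in LeuR 19, 20 and 21. The groups overlapped throughout, and the log2 fold changes were 0.13 (SE 0.23) for IleR, −0.11 (SE 0.23) for LeuR and −0.06 (SE 0.21) for ValR. Female Igf1 had group medians of 8.20, 8.31, 6.52 and 7.94 CPM for Control, IleR, LeuR and ValR, within an overall range of 3.94 to 12.1 CPM.

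Igf2, which encodes IGF-2, was 42.3, 54.7, 146 and 169 CPM in male Control 1, 3, 4 and 5, a pair of low and a pair of high libraries on 1 diet. It was 122, 94.9 and 163 CPM in male IleR, 148, 142 and 76.8 in LeuR, and 103, 100.4, 42.8 and 72.4 in ValR 7, 9, 10 and 12. In females Igf2 ran from a lowest of 26.0 through a median of 55.0 to a highest of 77.3 CPM in Control, and IleR libraries held 50.6, 48.3, 65.3, 105.7 and 58.3 CPM. Female LeuR ran from 65.3 through 89.9 to 146 CPM and ValR from 51.9 through 104 to 162 CPM. Most female LeuR and ValR libraries thus lay above the highest Control library, but both groups overlapped it. The log2 fold change was 0.89 (SE 0.30, adjusted p = 0.968 by edgeR) for LeuR and 0.96 (SE 0.30, adjusted p = 1 by edgeR) for ValR, and neither passed. With the choroid-meningeal score (the average of the Choroid plexus and the Meninges and fibroblasts levels) as a covariate these were 0.41 (SE 0.25) and 0.45 (SE 0.25). For male ValR the log2 fold change was −0.37 (SE 0.42). Over all alternative fits it ran from −2.13 to −0.03 and passed in none. The sex difference in the ValR effect on Igf2, male minus female, was −1.36 (SE 0.53, adjusted p = 0.106 by edgeR), which did not pass.

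Neither receptor passed against Control in any diet. Igf1r, the IGF-1 receptor, was 129, 122, 82.0 and 135 CPM in male Control 1, 3, 4 and 5 and 87.1, 92.5 and 60.9 CPM in LeuR 19, 20 and 21. Every LeuR library lay below Control 1, 3 and 5, and Control 4 lay inside the LeuR range. The log2 fold change was −0.55 (SE 0.17) and just missed the threshold (adjusted p = 0.0534 by edgeR; DESeq2 gave 0.0162). Without Control 4, which had the lowest Forebrain level of the male Control libraries (5.77 against 6.69 to 7.11, mean log2 CPM), it was −0.69 with an adjusted p of 0.00386 by edgeR. Without LeuR 21, whose Cerebellum level of 1.24 stood below the 5.05 and 6.63 of LeuR 19 and 20, it was −0.36 with an adjusted p of 0.14, and with the hindbrain score as a covariate −0.83 (SE 0.33, adjusted p = 0.568 by edgeR). Male IleR held 104, 112 and 122 CPM of Igf1r and ValR 125, 120.3, 133 and 123 CPM, both inside the Control range. Insr, the insulin receptor, was 80.4, 74.8, 68.4 and 65.4 CPM in male Control, 74.8, 67.4 and 54.2 in LeuR, and 81.8, 76.4, 82.8 and 91.6 in ValR; its log2 fold changes were −0.14 (SE 0.11) for LeuR and 0.20 (SE 0.10) for ValR. The LeuR and Control libraries overlapped for Insr, and without LeuR 21 the LeuR value was −0.002. In females both receptors stayed within narrow ranges over all diets, 73.8 to 117 CPM for Igf1r and 48.6 to 84.1 CPM for Insr.

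Of the adaptors, Irs1 passed the test in male ValR. Irs1, which docks PI3K at the active receptors, was 18.9, 24.0, 27.9 and 29.4 CPM in male Control 1, 3, 4 and 5 and 38.1, 28.9, 39.2 and 43.2 CPM in ValR 7, 9, 10 and 12. Of the 4 ValR libraries 3 lay above every Control library, and ValR 9 lay just inside the range. Irs1 rose with a log2 fold change of 0.58 (SE 0.16, adjusted p = 0.0223 by edgeR), from a mean of 25.1 ± 4.68 CPM (SD, n = 4 libraries) to 37.4 ± 6.04 CPM (SD, n = 4 libraries). Male IleR held 27.0, 31.1 and 40.3 CPM, with a log2 fold change of 0.39 (SE 0.18, adjusted p = 0.162 by edgeR), and LeuR 26.9, 28.2 and 23.2 CPM. With the hindbrain score of each library as a covariate (the average of its 2 hindbrain marker lists, Cerebellum and Brainstem and spinal cord, less its Forebrain level), the ValR change of Irs1 was 0.02 (SE 0.46, adjusted p = 0.995 by edgeR). This score lay between −8.16 and −5.78 in male Control and between 4.16 and 5.64 in ValR. It was 1.25 to 3.98 in male IleR and −3.98 to 3.89 in LeuR, so every restricted library scored above every Control library. A male fit with this score, for any gene here, therefore cannot part diet from region, and its value is not a region-corrected estimate. The Irs1 call was also lost when any of Control 1, Control 3, ValR 7, ValR 10 or ValR 12 was left out, with adjusted p between 0.0512 and 0.0736 by edgeR. Irs2, the other main adaptor, was the steadiest of the 10 genes in males: 97.2, 126, 97.5 and 102 CPM in Control and 122, 119.5, 114 and 123 CPM in ValR, with a log2 fold change of 0.18 (SE 0.09, adjusted p = 0.156 by edgeR). Without Control 3 this Irs2 value was 0.28 and passed (adjusted p = 0.0202 by edgeR), in 1 of 14 fits that left out 1 male library. In females the log2 fold changes of both adaptors lay between 0.05 and 0.17 for the 3 diets.

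Of the binding proteins, Igfbp5 passed the test in male ValR. Igfbp5 was 160.4, 229.8, 301 and 249 CPM in male Control 1, 3, 4 and 5 and 151, 136, 172 and 194 CPM in ValR 7, 9, 10 and 12. The ValR libraries lay below 3 of the 4 Control libraries and around Control 1. Igfbp5 fell by 0.53 on the log2 scale (SE 0.17, adjusted p = 0.036 by edgeR), from 235 ± 58.1 CPM (SD, n = 4 libraries) to 163 ± 25.2 CPM (SD, n = 4 libraries). Once the hindbrain score entered the fit the change was −0.34 (SE 0.48, adjusted p = 0.871 by edgeR), and the call was lost without any of Control 3, Control 4, Control 5, ValR 7, ValR 9, ValR 10 or IleR 14, with adjusted p between 0.0503 and 0.0959 by edgeR. Male IleR held 266, 260 and 235 CPM and LeuR 181, 226 and 232 CPM, inside the Control range. Every male ValR library was below every male IleR library for Igfbp5, but this direct comparison did not pass (log2 fold change −0.64, SE 0.18, adjusted p = 1 by edgeR).

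In females Igfbp5 went the other way for ValR, with a lowest, median and highest of 140.3, 169 and 250.2 CPM in Control and 159, 218 and 279 CPM in ValR, and a log2 fold change of 0.32 (SE 0.16) that did not pass. The sex difference in the ValR effect itself passed for Igfbp5, at −0.87 on the log2 scale, male minus female (SE 0.25, adjusted p = 0.0404 by edgeR in 1 fit of all 37 libraries). It was the only 1 of the 10 genes to do so, beside 4.25% of all 22465 genes for ValR, 0.0979% for IleR and 0.00445% for LeuR. It did not pass with that score in the fit (−0.95, adjusted p = 0.503), and 19 of 37 fits that left out 1 library lost it.

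Igfbp2 was 34.3, 39.7, 44.0 and 77.7 CPM in male Control 1, 3, 4 and 5, and 148, 73.1 and 17.2 CPM in LeuR 19, 20 and 21. The LeuR libraries thus held both the highest and the lowest level of the males, and the log2 fold change of 0.70 had an SE of 0.52. It turned to −0.12 without LeuR 19 and to −2.26 (SE 0.75, adjusted p = 0.487 by edgeR) once the hindbrain score entered the fit. Male IleR held 53.4, 59.4 and 72.5 CPM and ValR 60.3, 57.6, 29.1 and 24.7 CPM, with log2 fold changes of 0.34 (SE 0.53) and −0.19 (SE 0.49) that did not pass. With the hindbrain score they became −3.09 and −4.32 and again did not pass. That score did not overlap between Control and these diets, so these are not region-corrected estimates. In females Igfbp2 had medians of 24.3 CPM in Control, 31.8 in IleR, 37.1 in LeuR and 39.6 in ValR, and log2 fold changes of 0.15 (SE 0.28), 0.64 (SE 0.27) and 0.72 (SE 0.27); the adjusted p values were 1, 0.968 and 1 by edgeR. With the choroid-meningeal score as a covariate the LeuR and ValR values were 0.15 (SE 0.21) and 0.21 (SE 0.21).

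Of the FoxO factors, Foxo3 differed between male ValR and LeuR. Foxo3 was 117, 119, 75.6 and 125 CPM in male Control 1, 3, 4 and 5. It was 142, 120.5, 181 and 199.9 CPM in ValR 7, 9, 10 and 12 and 72.2, 92.2 and 56.3 CPM in LeuR 19, 20 and 21, so the ValR and LeuR libraries did not overlap. Foxo3 was higher in ValR than in LeuR by 1.13 on the log2 scale (SE 0.24, adjusted p = 0.0481 by edgeR), beside 2.75% of all genes called in that comparison, 1.73% that rose and 1.03% that fell. Fitted together with the hindbrain score the difference was 1.03 (SE 0.35, adjusted p = 0.236 by edgeR) and did not pass. That score did not overlap between the male ValR and LeuR libraries. The call was kept in 5 of 14 fits that left out 1 male library and was lost without any of Control 1, Control 3, Control 5, ValR 7, ValR 10, ValR 12, IleR 14, LeuR 19 or LeuR 21, with values between 0.96 and 1.18 and adjusted p between 0.0588 and 0.152 by edgeR. Against Control, the log2 fold changes of Foxo3 did not pass, at 0.56 (SE 0.22, adjusted p = 0.0805 by edgeR) in ValR and −0.57 (SE 0.24, adjusted p = 0.142 by edgeR) in LeuR. The ValR value passed without ValR 9 (0.68, adjusted p = 0.0444) and the LeuR value without Control 4 (−0.71, adjusted p = 0.0473). Male IleR held 91.3, 115 and 155 CPM of Foxo3. Foxo1 was 56.8, 30.4, 35.6 and 36.3 CPM in male Control and 45.1, 45.3, 38.2 and 45.6 CPM in ValR, with a log2 fold change of 0.13 (SE 0.16). Without Control 1 this Foxo1 value was 0.35 and passed (adjusted p = 0.0327 by edgeR), in 1 of 14 fits that left out 1 male library. In females Foxo1 ran from 25.2 CPM in LeuR 47 to 88.3 CPM in Control 25, and the Foxo1 log2 fold changes were −0.45 (SE 0.26), −0.23 (SE 0.25) and −0.20 (SE 0.25) for IleR, LeuR and ValR. Fits that left out 1 female library gave −0.56 to −0.19 for IleR, −0.43 to 0.03 for LeuR and −0.40 to 0.05 for ValR.

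Between restricted diets, ValR and LeuR were the furthest apart in males. Igf1r, Insr, Irs1, Foxo1 and Foxo3 were each higher in every ValR library than in every LeuR library, 5 of 10 genes where 17.9% of all genes did not overlap. Beside Foxo3, the log2 fold changes were 0.65 for Igf1r (SE 0.17, adjusted p = 0.0544 by edgeR), 0.34 for Insr (SE 0.11, adjusted p = 0.0929), 0.52 for Irs1 (SE 0.18, adjusted p = 0.105) and 0.42 for Foxo1 (SE 0.17, adjusted p = 0.159), which did not pass. DESeq2 called Igf1r, Insr and Irs1 as well, beside 11.5% of all genes. For male ValR against LeuR 4 of 10 Forebrain markers fell and 1 of 10 Cerebellum markers rose by edgeR, beside 1.03% and 1.73% of all genes. Diet and region cannot be told apart here either. For IleR against LeuR and ValR against IleR, 2 of 10 genes did not overlap, beside 16.3% and 5.83% of all genes, and 0 of 10 passed, as did 0% of all genes by edgeR and 0 of the 10 by DESeq2 and limma voom; at an unadjusted p under 0.05 there were 2 and 1 of the 10, beside 11.3% and 2.83% of all genes. In females 0 of 10 passed in any of the 3 comparisons between restricted diets, at an adjusted or an unadjusted p, and all groups overlapped for IleR against LeuR, ValR against LeuR and ValR against IleR, beside 0.629%, 0.403% and 0.457% of all genes that did not.

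Foxo3 and Irs1 levels are given beside the Cerebellum markers as a description, with no test. The mean log2 CPM of the Cerebellum list lay between 6.27 and 8.46 in 8 female libraries, 2 of each diet, and between 0.38 and 2.97 in the other 15; this split was chosen after the values were seen. Foxo3 had a lowest, median and highest of 121, 132 and 173 CPM in the 8 libraries and of 75.5, 86.1 and 113 CPM in the 15, with no overlap, beside 2.71% of all genes tested in females that did not overlap between these libraries. Irs1 had 22.2, 31.6 and 35.8 CPM in the 8 and 12.6, 19.9 and 26.4 CPM in the 15, with overlap. Insr and Igf1r were less far apart, with medians of 72.1 against 60.7 CPM and 104.9 against 88.6 CPM, and Igfbp5 medians of 188 and 191 CPM were close. Among males, 9 libraries, all on restricted diets, had a level above 5.05 on the same list, and the 4 Control libraries and LeuR 21 were at most 1.33. Male Foxo3 overlapped between them, with a median of 120.5 CPM in the 9 libraries and 117 CPM in the 5, and LeuR 19 and 20, rich in Cerebellum markers, lay below Control 1, 3 and 5. Male Irs1 medians were 31.1 and 24.0 CPM, with overlap. The male sets differ in diet as well, so they cannot be set against the female ones.

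**Figure D3:**
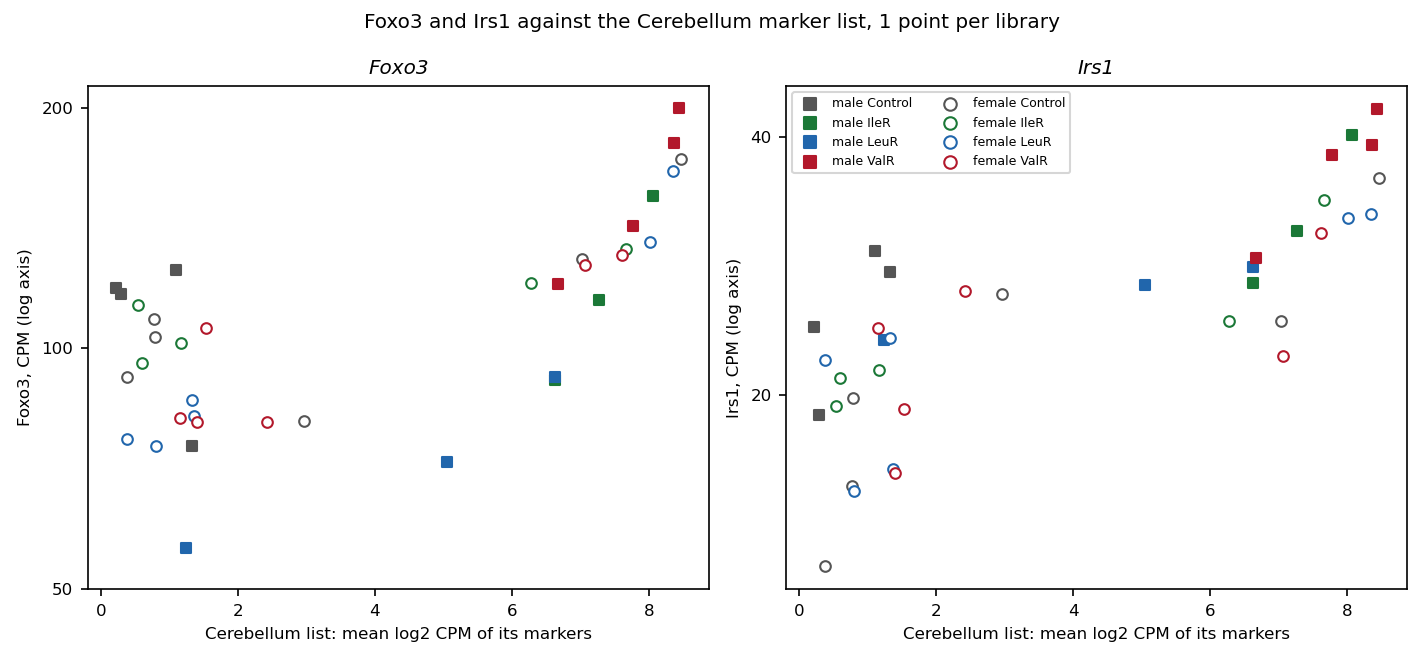
Foxo3 (left) and Irs1 (right) in CPM on a log axis against the mean log2 CPM of 10 Cerebellum markers, 1 point per library, males as filled squares and females as open circles, colored by diet. The 8 female libraries at the right, 2 of each diet, lie above the other 15 for Foxo3, whereas the male libraries at that end are split for Foxo3, with ValR high and LeuR 19 and 20 (72.2 and 92.2 CPM) low.

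Igf2 followed the markers of the meninges, and Igfbp2 those of the choroid plexus. The correlation of log2 CPM with the mean of 10 Meninges and fibroblasts markers was r = 0.81 (rho = 0.78) for Igf2 over 23 female libraries, by a permutation test of 100000 draws with the smallest p they can give, 1e-05, adjusted to 4e-04 over the 40 relations of 10 genes, 2 lists and 2 sexes. It was r = 0.73 without the 2 libraries farthest from the list's median and r = 0.73 within diets. Over 14 males it was r = 0.70 (rho = 0.62), with a permutation p of 0.00564, adjusted to 0.0376 for r and 0.0926 for rho, r = 0.65 without the 2 farthest libraries and r = 0.63 within diets. For Igfbp2 the relation was with 10 Choroid plexus markers, at r = 0.82 (rho = 0.88, permutation p = 2e-04, adjusted 0.00267) over males and r = 0.69 (rho = 0.60, permutation p = 0.00014, adjusted 0.00267) over females. Without the 2 farthest libraries these were 0.84 and 0.59, and within diets 0.85 and 0.64. With the Meninges and fibroblasts list Igfbp2 had r = 0.25 in males and r = 0.46 in females, which did not pass (permutation p = 0.392 and 0.0261, the second adjusted to 0.118). Irs2 followed the Choroid plexus list in females (r = 0.64, rho = 0.65, permutation p = 0.00108, adjusted 0.0108, 0.55 without the 2 farthest, 0.61 within diets). In males r was 0.19 (adjusted permutation p = 0.686), and the difference between the sexes was not tested. Igf2 also followed Choroid plexus markers in females (r = 0.58, rho = 0.55, permutation p = 0.00341, adjusted 0.0273, 0.50 without the 2 farthest, 0.48 within diets). In males this relation was of like size (r = 0.59, rho = 0.71, permutation p = 0.0265 and 0.00541, adjusted 0.118 and 0.0433, r = 0.39 without the 2 farthest, 0.57 within diets). No marker of either list was called for a diet in either sex (0 of 10 each), and the Meninges and fibroblasts sum ran from 34.3 to 114 CPM in female Control and from 64.1 to 191 CPM in female ValR. In bulk tissue more cells of a type and more RNA per cell cannot be told apart.

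**Figure D4:**
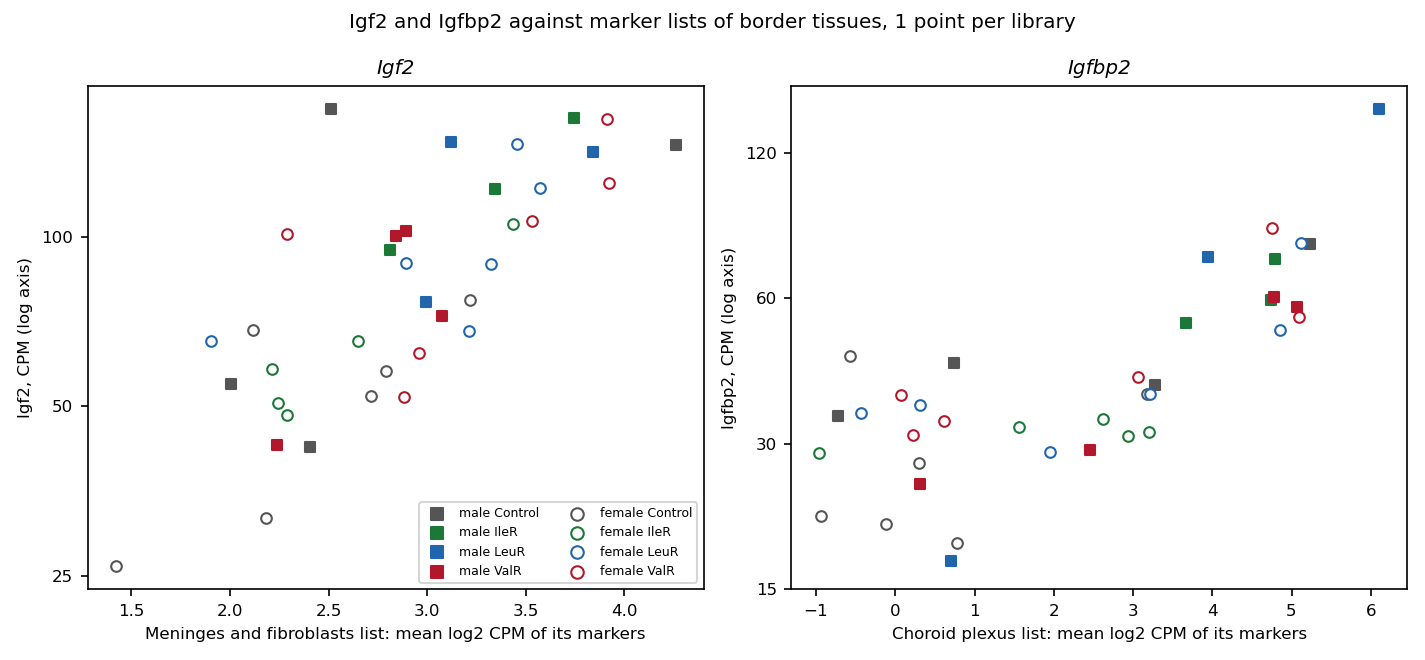
Igf2 against the mean log2 CPM of 10 Meninges and fibroblasts markers (left) and Igfbp2 against that of 10 Choroid plexus markers (right), in CPM on log axes, 1 point per library, males as filled squares and females as open circles, colored by diet. Both rise from left to right in each sex, with r = 0.81 for Igf2 in females and r = 0.82 for Igfbp2 in males.

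The genes whose log2 CPM was most like each of the 10, over 37 libraries after each sex's mean was taken off and among 13643 genes, are given as a description. These points share depth and region, so the correlations have no p. For Igf2 they were Slc13a4 (r = 0.94), a sulfate transporter of the meninges and choroid plexus, Dab2 and Aebp1 (both 0.88). For Igfbp2 they were Msx1 (0.90), a homeobox gene, Trim56 (0.88) and Tspo (0.87). Igfbp5 was nearest to Lef1 (0.76), Ntng1 (0.73) and Tcf7l2 (0.72), genes known for high levels in the thalamus, and Foxo1 to Strn (0.84), Penk (0.79) and Ppp1r1b (0.79), known from the striatum. Foxo3 was nearest to Dab2ip, Rmnd5a and Diras2 (all 0.95), and Irs1 to Plcb4 (0.91), Flt3 (0.90) and Ephb2 (0.90). Irs2 was nearest to Prox1 (0.81), a gene of dentate granule cells, Tspan18 (0.80) and Zhx2 (0.79), Igf1r to Gm21955, Pds5a (both 0.88) and Cdc42bpa (0.86), Insr to Zfp973 (0.80), Pik3c2a and Lrp6 (both 0.78), and Igf1 to Senp5 (0.77), Slc4a8 (0.72) and Mast4 (0.71). Within the 10, the highest pairs were Igf1r with Foxo3 (0.76), Igf2 with Igfbp2 (0.73), Irs1 with Foxo3 (0.63) and Irs1 with Irs2 (0.62), and the lowest was Igf1 with Foxo1 (−0.47).

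The places of the genes are given on GRCm38. Igfbp2 (ENSMUSG00000039323, chr1:72824503-72852474, plus strand) and Igfbp5 (ENSMUSG00000026185, chr1:72857932-72874884, minus strand) lie tail to tail with 5457 bases between them, and Irs1 (ENSMUSG00000055980, chr1:82233101-82291416, minus strand) is on the same chromosome. Igf2 (ENSMUSG00000048583, chr7:142650766-142666816, minus strand) and Igf1r (ENSMUSG00000005533, chr7:67952827-68233668, plus strand) share chromosome 7, Insr (ENSMUSG00000005534, chr8:3122061-3279617, minus strand) and Irs2 (ENSMUSG00000038894, chr8:10984681-11008458, minus strand) chromosome 8, and Igf1 (ENSMUSG00000020053, chr10:87858265-87937042, plus strand) and Foxo3 (ENSMUSG00000048756, chr10:42181841-42276755, minus strand) chromosome 10. Foxo1 (ENSMUSG00000044167, chr3:52268336-52353221, plus strand) stands alone on chromosome 3. An antisense gene of Irs1, Gm9747, shares exon bases with it and had at most 35 counts, up to 7.17% of the Irs1 count. Gm49394 shares 3596 exon bases with Igf2 on the same strand and had at most 8 counts.

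Sequence upstream of the start was taken from RefSeq (GRCm38.p6) for 9 of the 10 genes in 13 windows of 250 bases. Insr had no window in the set used here. The 4 stretches below belong to the pair that followed meninges or choroid plexus markers and to the pair that passed the test in male ValR. Igf2 has 4 windows, of which the one before the annotated gene is printed, and Igfbp2 has 2, of which the first is. They are printed 5′ to 3′ on the gene's strand, with that of Igfbp5 ended after 231 bases, where the annotated gene begins, and capitals mark matches on either strand to the GC box (GGGCGG) or the E-box (CACGTG), which do not overlap each other here.
Igf2 (chr7:142666817-142667066, minus strand): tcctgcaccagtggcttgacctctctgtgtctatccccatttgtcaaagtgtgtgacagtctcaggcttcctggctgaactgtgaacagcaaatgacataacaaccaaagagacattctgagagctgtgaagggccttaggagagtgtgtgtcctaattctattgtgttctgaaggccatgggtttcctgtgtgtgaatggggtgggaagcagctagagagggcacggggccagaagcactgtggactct
Igfbp2 (chr1:72824230-72824479, plus strand): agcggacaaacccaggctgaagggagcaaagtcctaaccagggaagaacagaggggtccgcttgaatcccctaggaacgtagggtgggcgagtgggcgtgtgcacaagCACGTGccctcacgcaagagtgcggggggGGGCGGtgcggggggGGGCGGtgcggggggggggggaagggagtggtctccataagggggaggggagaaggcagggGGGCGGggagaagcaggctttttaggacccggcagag
Irs1 (chr1:82291440-82291689, minus strand): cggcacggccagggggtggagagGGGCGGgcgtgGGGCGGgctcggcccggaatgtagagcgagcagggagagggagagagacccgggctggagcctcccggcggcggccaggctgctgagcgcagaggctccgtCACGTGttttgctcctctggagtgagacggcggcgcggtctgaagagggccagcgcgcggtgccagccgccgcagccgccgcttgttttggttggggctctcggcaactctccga
Igfbp5 (chr1:72874885-72875115, minus strand): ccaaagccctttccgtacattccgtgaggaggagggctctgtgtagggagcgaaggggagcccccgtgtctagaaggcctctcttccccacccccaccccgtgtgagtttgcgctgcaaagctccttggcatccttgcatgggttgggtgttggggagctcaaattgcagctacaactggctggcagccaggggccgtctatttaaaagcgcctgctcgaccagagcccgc

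The GC box was in 8 of the 13 windows, of 7 genes, and in 32.7% of all 32851 mouse windows of that length. The windows with this box held 56% to 77.6% G and C, against a median of 52.4% over all windows. Windows of like G and C content were not compared. Foxo3 had 5 matches, Igfbp2 3 in 1 of its 2 windows, Igf2 2 and 1 in 2 windows that are not printed, Irs2 1, and Igf1r, Irs1 and Foxo1 2 each. The E-box was in 3 of the 13, those of Irs1, Irs2 and Igfbp2, and in 6.02% of all windows. The core that FoxO factors bind, GTAAACA, was in 0 of the 13 windows and in 3.17% of all windows. These matches are letters in a window, and binding was not measured.

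Other genes of the pathway, 69 in all in a list by role, were called in part in males. Of 66 tested, 8 rose and 12 fell in male IleR (30.3% called), 4 rose and 13 fell in LeuR (25.8%) and 10 rose and 17 fell in ValR (40.9%), while of all genes 6.63% rose and 8.68% fell in IleR, 3.81% and 6.33% in LeuR, and 11.1% and 12.4% in ValR. Their median log2 fold changes were −0.04, −0.07 and 0.01. With the hindbrain score as a covariate 0 of 66 passed for each diet by edgeR, beside 0.0135%, 0.0496% and 0% of all genes. With only the groups compared 21, 0 and 26 passed, beside 15.3%, 0% and 25.6% of all genes. Leaving out 1 male library gave 11 to 28, 3 to 20 and 19 to 30, beside 8.07% to 19.5%, 2.41% to 17.7% and 17.2% to 26.4% of all genes. Every pathway call named below shares these limits. Of 64 tested in females, 0 passed for any diet by edgeR, with 1, 3 and 3 at an unadjusted p under 0.05. The 3 male comparisons share their Control libraries, so the values are given side by side.

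Outside the cell, a protease gene rose while 2 binding protein genes fell. Pappa, the protease pappalysin-1 that cuts IGFBP4, was 0.47 to 1.46 CPM in male Control and rose to between 4.86 and 6.33 CPM in IleR, 2.20 and 4.16 in LeuR and 2.56 and 6.31 in ValR, with log2 fold changes of 2.89, 1.98 and 2.52. Igfbp4 itself fell from 39.5 to 76.2 CPM in Control to between 12.5 and 20.5 CPM in IleR, 14.3 and 27.2 in LeuR and 7.96 and 19.1 in ValR (log2 fold changes −1.84, −1.43 and −2.38). Igfbp6, which binds IGF-2 most tightly, fell by 1.92, 2.01 and 1.93 on the log2 scale. Stc2, an inhibitor of pappalysins, rose in IleR from 1.91 to 2.55 CPM in Control to between 4.53 and 5.92 CPM (log2 fold change 1.25), whereas Stc1, an inhibitor of the same kind, fell in ValR from 2.61 to 3.91 CPM in Control to between 0.83 and 1.48 CPM (log2 fold change −1.59). None of the restricted libraries overlapped Control for these genes and diets. Of all genes 29.3%, 17.7% and 26.4% did not overlap Control in male IleR, LeuR and ValR, and these genes were picked from the called ones. In females Pappa spanned 0.30 to 5.25 CPM and Igfbp4 14.4 to 78.9 CPM within the Control group alone.

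Inside the cell, more PI3K and Akt genes fell than rose: 4 against 1 of 10 in male IleR, 5 against 0 in LeuR and 5 against 1 in ValR. Over all genes falls also outnumbered rises in each diet, by the shares given above. Pik3r3, a regulatory subunit of PI3K, was the gene that rose, from 49.2 to 63.1 CPM in Control to between 87.0 and 160.2 CPM in ValR (log2 fold change 1.21). Shc3, a neuronal adaptor, fell by 1.33 in LeuR and 1.27 in ValR on the log2 scale. Irs4, an adaptor found mainly in the hypothalamus, had the highest LeuR log2 fold change of the list, 4.81, but its LeuR libraries ran from 3.61 to 138.7 CPM and overlapped Control. Among the brakes on the pathway, 2, 2 and 3 of 5 fell in male IleR, LeuR and ValR, beside 8.68%, 6.33% and 12.4% of all genes. Of 7 mTORC1 genes none was called for any diet in either sex (0 of 7 by edgeR). Over all genes 15.3%, 10.1% and 23.5% were called in males and 0% in females, so 0 of 7 does not set this branch apart. Of 12 FoxO targets 2, 1 and 3 passed, all upward, which is near the 15.3%, 10.1% and 23.5% of all genes called. Foxo6, a FoxO factor of forebrain neurons, fell from 8.27 to 13.3 CPM in Control to between 2.34 and 6.15 CPM in IleR and 1.69 and 2.59 in ValR (log2 fold changes −1.55 and −2.35). Stat5a, which carries growth hormone signals, rose with log2 fold changes of 1.21, 1.12 and 1.40. Of 5 genes of the growth hormone axis tested, 1 rose and 1 fell in IleR, 1 and 2 in LeuR and 2 and 2 in ValR. Stat5b, a close relative of Stat5a, rose in ValR by a log2 fold change of 0.82. The genes that fell were Socs2, an inhibitor of that signal, by 0.84, 1.09 and 0.77 on the log2 scale in IleR, LeuR and ValR, and Jak2, the kinase at the growth hormone receptor, by 0.67 in LeuR and 0.45 in ValR.

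**Figure D5:**
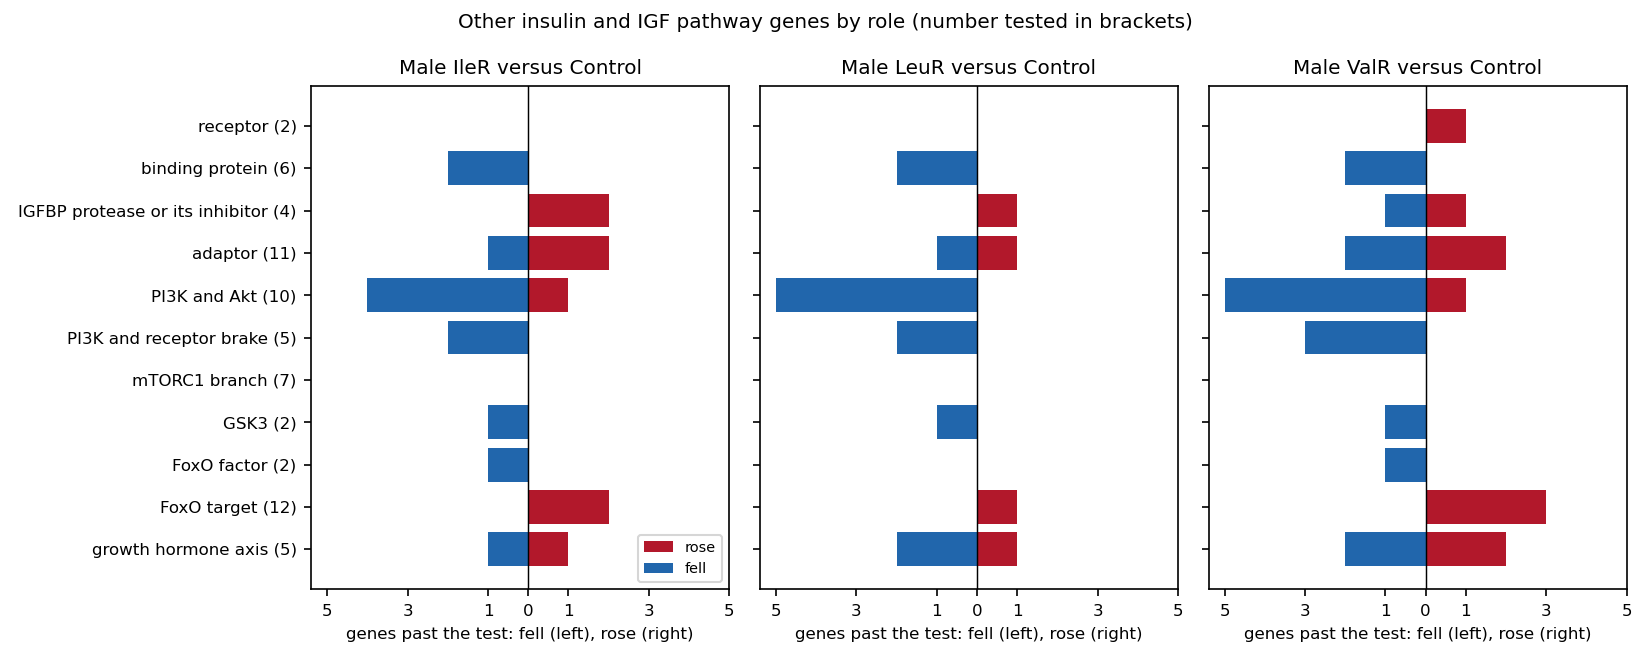
Number of other insulin and IGF pathway genes past the test in male IleR, LeuR and ValR against Control, by role, with those that fell as bars to the left and those that rose as bars to the right of 0; brackets give how many were tested. PI3K and Akt genes fall more than they rise in each diet, and the mTORC1 branch has no bar.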

How the data were processed

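RNA-seq libraries of 3xTg brains were analysed. The labels list 47 libraries; 37 were used, which leaves 10 of the males not analysed here. Reads were aligned by the authors to GRCm38.p5, and they deposited an expected count per Ensembl gene and library, without normalization; the aligner and its version are not given in the sources used here. The submitters' processing notes name R 3.4.3, edgeR and limma, and the authors removed clear outliers after principal component analysis; whether the 10 males are among them is not settled. The results of the paper describe whole brain, its methods the left hemisphere, the labels give brain as tissue but liver in the extraction text, and they name both polyA and total RNA, so what tissue piece and RNA were sequenced is not settled. In each library 3.69% to 4.93% of values were not whole (tolerance 1e-09). The authors also deposited 2 tables of their own fold changes and p-values, which were not used.

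Rounding to whole numbers came before edgeR 4.0.16 in R 4.3.3. A gene was kept where every library of 1 diet group had at least 1 count, the 4 diets of a sex were fitted in 1 quasi-likelihood model with TMM normalization, and p-values were adjusted by Benjamini-Hochberg over all genes (threshold 0.05). Sex differences were tested in 1 fit of all 37 libraries. CPM values are after TMM, log2 CPM has a prior count of 2, and exon lengths, coordinates and symbols came from GENCODE M21 (GRCm38), which names 52083 of the 55416 identifiers. Alternatives were limma 3.58.1 (voom), DESeq2 1.42.0, other filters, size factors, samples and covariates, and each library left out in turn. The tests were tested on simulated data. The 73 pairs of replicate libraries all differed by more than counting error (lowest chi-square per degree of freedom 8.43). Xist and the Y-linked Ddx3y and Uty matched the labelled sex in all libraries. Of the pathway list, the text names per diet and sex the 3 largest rises and the 3 largest falls past the threshold among genes whose mean log2 CPM reached 1; Stc1, Ins1, Ins2, Ptpn1 and other genes outside this rule were named after their values were seen. The 10 genes, the lists and the tests were chosen with earlier results of these data known.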

Additional observations from a re-analysis of the deposited data

Results flagged for a closer look

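In 60 checks of 1 gene in 1 diet group of 4 to 6 libraries, 3 libraries stood far from the rest of their group for Foxo1 or Foxo3, where chance gives about 1 in 20. Male Control 4 held 75.6 CPM of Foxo3, and the other 3 Control libraries lay between 117 and 125 CPM. Male ValR 10 held 38.2 CPM of Foxo1, and the other 3 ValR libraries lay between 45.1 and 45.6 CPM. Female ValR 33 held 69.9 CPM of Foxo1, and the other 5 ValR libraries lay between 31.6 and 41.7 CPM.

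Males and females responded to ValR with different log2 fold changes for Igfbp5, 1 of the 10 genes, and for 3 of 66 pathway genes, by the sex by diet term of edgeR's fit of all 37 libraries, a share near the 4.25% of all genes called. For Igfbp5 the difference, male minus female, was −0.87 on the log2 scale. For Igfbp4, which fell in male ValR, it was −2.48 (SE 0.62, adjusted p = 0.0259 by edgeR). For Foxo6 it was −2.42 (SE 0.67, adjusted p = 0.0372 by edgeR), and for Ptpn1, which encodes a phosphatase that acts on the insulin receptor, −0.55 (SE 0.15, adjusted p = 0.0389 by edgeR). The Forebrain marker sums were between 27.9 and 69.0 CPM in male ValR and between 608.5 and 2917 CPM in female ValR. With the hindbrain score as a covariate none of the 4 passed and 0 of 22465 genes did by edgeR; the differences were −0.95 for Igfbp5, −0.43 for Igfbp4, 0.13 for Foxo6 and −0.11 for Ptpn1, with adjusted p of 0.503, 0.878, 0.971 and 0.886, and 1832 genes had an unadjusted p under 0.05. With limma voom none of the 4 passed either (adjusted p between 0.0561 and 0.0963), nor did Igfbp5 and Ptpn1 without the filter (0.0645 and 0.0695) or Igfbp5 with only the groups compared (0.0547).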

How the results depend on the processing

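Counts of the 10 genes called were the same as reported for every female comparison, for male IleR against Control, IleR against LeuR and ValR against IleR, and for the IleR sex difference, under all alternatives run. With the hindbrain score as a covariate 0 of all genes passed for male ValR against Control, ValR against LeuR and the ValR sex difference, so those losses were not particular to the 10 genes. Male ValR against Control (2 genes) gave 0 with that score, 1 with only the groups compared (Igfbp5 was lost) and 1 with both sexes in 1 fit (Irs1 was lost). Male LeuR against Control (0 genes) gave 1 gene, Igf1r, with filterByExpr, DESeq2 and both sexes in 1 fit. Male ValR against LeuR (1 gene) gave 2 without the filter, with filterByExpr and with both sexes in 1 fit, and 4 with DESeq2. It gave 0 with the hindbrain score, the choroid-meningeal score or only the groups compared. There the Foxo3 values were 1.03, 1.13 and 1.13 with adjusted p of 0.236, 0.0531 and 0.119 by edgeR, and 0, 24 and 0 of all genes passed. The ValR sex difference (1 gene) gave 0 without the filter, with the hindbrain score, with only the groups compared and with limma voom. Where a cause is not plain from the alternative itself, the cause was not tested. Leaving out 1 library gave 0 to 2 genes for male LeuR against Control, 0 to 2 for ValR against Control, 0 to 3 for ValR against LeuR, 0 to 1 for the LeuR sex difference and 0 to 1 for the ValR sex difference. Of the single-gene values, 4580 kept their side of the threshold, 51 lost and 19 gained a call, and 0 called values changed sign. With the longest transcript in place of all exons, Insr and Foxo1 changed places in females. No paired analysis was possible because each library has a number of its own. With 3 or 4 male libraries per diet, the SE of 0.42 to 0.53 for Igf2 and Igfbp2 limits what could be detected.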

Other observations

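The growth hormone gene Gh had 0 counts in all male Control and IleR libraries and in female ValR, and at most 28 counts in any library. The growth hormone receptor gene Ghr was measured in every library, between 5.55 and 22.5 CPM, and was called for no diet.

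Grb10, an adaptor that binds and restrains both receptors, was 42.9 to 96.0 CPM in male Control libraries, 69.8 to 98.6 in IleR, 71.4 to 191 in LeuR and 59.8 to 90.3 in ValR, and did not pass in any comparison. Igf2r, the receptor that takes IGF-2 out of circulation, was 50.7 to 62.2 CPM in male Control and rose to between 68.0 and 91.6 CPM in ValR (log2 fold change 0.43, SE 0.12, adjusted p = 0.02 by edgeR). Male IleR held 70.2 to 83.1 CPM of Igf2r, all above Control, but did not pass (adjusted p = 0.0831 by edgeR).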
